A study of Mus musculus with 6 samples.

Results

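The liver takes bile acids up from the blood through carriers on the sinusoidal face of the hepatocyte and pumps them, with phospholipid and conjugated anions, across the canalicular face into bile. A further set of pumps on the basolateral face returns anions to the blood and is known to be used when flow into bile is impaired. Many of these genes are known targets of the nuclear receptors FXR, PXR and CAR and of the factors HNF4A and NRF2. The 10 transporter genes described here were picked by symbol from the count table of 53599 genes, namely the uptake carriers Slc10a1, Slco1a1, Slco1a4 and Slco1b2, the canalicular exporters Abcb11, Abcb4, Abcc2 and Abcg2, and the basolateral exporters Abcc3 and Abcc4. All 10 were in the table and all 10 passed the filter on low counts, which left 12691 genes.

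RNA-Seq was performed on liver hepatocytes of 3 mice that received AAV8-TBG-Cre, the empty vector (EV), and of 3 that received AAV8-TBG-HA-Sox4-P2A-Cre (Sox4), and all were taken on day 4. The labels give the genotype as WT for EV and as Sox4 for the other group, which refers to the vector. By the methods of the study, the mice were male Rosa-LSL-Cas9-EGFP homozygotes on a C57BL/6J background, injected at 4 to 8 weeks of age. Cre was delivered to both groups, so that a Cas9-EGFP allele, where carried, would be switched on in both. TBG is a promoter active in hepatocytes, and SOX4 is a transcription factor that is scarce in adult hepatocytes. The labels name no batch.

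Libraries held 15090629 to 16964860 counts. Levels are given as CPM, counts scaled to the sequencing depth after normalization by the trimmed mean of M-values method (TMM), where 3 counts correspond to 0.150 to 0.231 CPM. The ratio of Sox4 to EV was 1.48 for scaled sizes and 1.07 for total counts, and all genes had a median log2 fold change of 0.04 under TMM, or of 0.51 when library size alone was used. Changes are therefore relative to the TMM scale, and for the 10 transporters the values with library size alone are given where they differ in sign. Sox4, the delivered gene, had 2, 0 and 3 counts in the EV libraries and 21697, 15097 and 11816 in the Sox4 libraries, as labelled. Of 10 hepatocyte markers, all detected in every library, 7 were lower and 0 higher in Sox4 by the edgeR test described below. These were Apoa1 (log2 fold change -1.81), Fah (-1.61), Tat (-1.59), Asgr1 (-1.35), Hnf4a (-0.60), Alb (-0.58) and Serpina1a (-0.55). Cps1 (-0.38), Apob (-0.20) and Ttr (-0.09) did not pass. With library size alone 4 markers were lower and 0 higher. Of all genes tested, 26.0% were lower and 29.0% higher, or 12.8% and 51.0% with library size alone. Most of the marker list thus fell beside the transporters that fell, and the part of this in the transporter values was not tested.

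Of the 10 transporter genes, 5 were lower and 3 were higher in Sox4 hepatocytes, and 2 did not pass the test (edgeR, quasi-likelihood test, with p adjusted over all genes by Benjamini-Hochberg and a threshold of 0.05). Across all genes tested, 26.0% were lower and 29.0% higher, 55.1% in all. Of the 10, 5 also differed by 4-fold or more, against 11.8% of all genes. The 10 were chosen with earlier results of these data known, so these shares do not measure an excess. The 3 lower carriers of sinusoidal uptake were Slc10a1, Slco1a1 and Slco1b2, while their relative Slco1a4 rose. Of the canalicular exporters, Abcc2 rose, Abcg2 fell, and Abcb11 and Abcb4 did not pass. Of the basolateral exporters, Abcc3 fell and Abcc4 rose from a level close to the detection limit. Abcc4 passed the filter on low counts through the Sox4 libraries, so its direction was partly set by the filter. In 9 of the 10 genes, all but Abcb4, the libraries of the groups did not overlap, as was so for 63.0% of all genes. RNA was measured in bulk, so fewer cells that express a gene and less RNA per cell cannot be told apart.

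**Figure D1:**
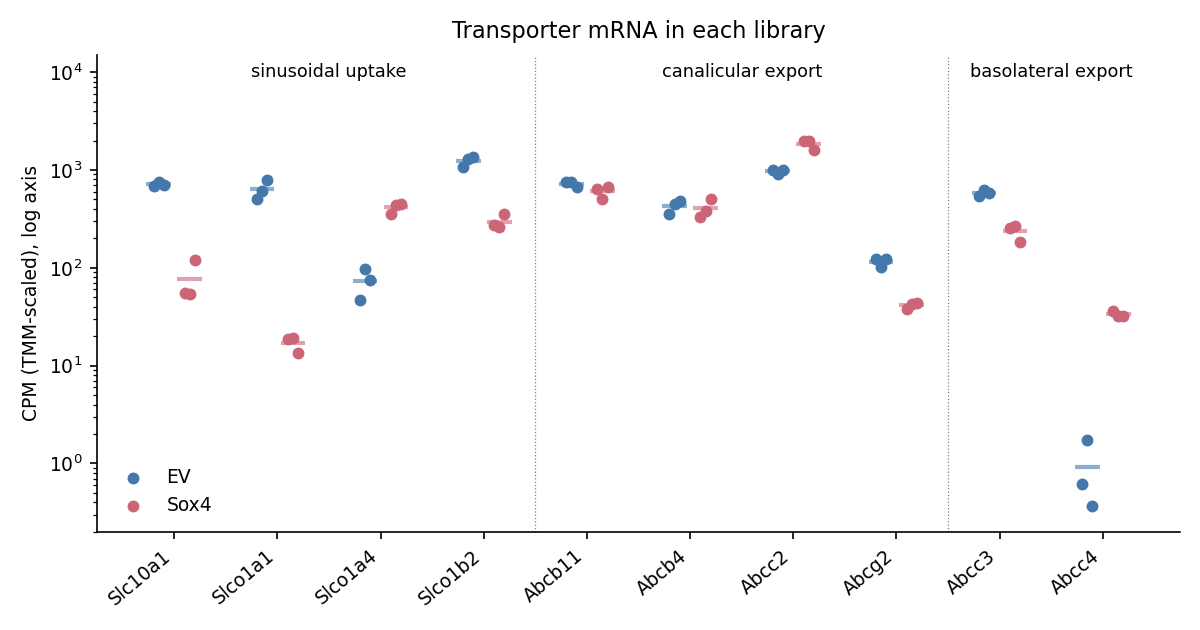
Level of each transporter mRNA in CPM on TMM-scaled library sizes (log axis) in the 3 EV and 3 Sox4 libraries, with points for libraries and bars for group means. Slc10a1, Slco1a1, Slco1b2, Abcg2 and Abcc3 lie lower and Slco1a4, Abcc2 and Abcc4 higher in Sox4, while the points of Abcb4 overlap.

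Slc10a1 encodes NTCP, the sodium-dependent carrier that takes up most conjugated bile acids. It stood at 689, 753 and 708 CPM in EV 1 to 3 and at 55.7, 53.6 and 121 CPM in Sox4 1 to 3. Sox4 3 thus retained a higher level than the other Sox4 libraries, but all 3 lay far below EV. The fall was 9.34-fold (log2 fold change -3.22, SE 0.38, adjusted p = 5.73e-05), and the log2 fold change was -3.71 without Sox4 replicate 3.

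Slco1b2 encodes OATP1B2, the main sodium-independent carrier for unconjugated bile acids, bilirubin and many drugs. Its level was 1079, 1308 and 1342 CPM in EV and 272, 262 and 352 CPM in Sox4. It fell 4.21-fold (log2 fold change -2.07, SE 0.17, adjusted p = 9.35e-06), again with Sox4 3 the highest of its group. Within each library, Slc10a1 gave 0.527 to 0.639 counts per count of Slco1b2 in EV and 0.205 to 0.343 in Sox4, so that Slc10a1 fell by more, by 1.25 on the log2 scale (SE 0.26). Such a ratio within a library does not depend on how libraries are scaled. The groups did not overlap, and the exact permutation test (two-sided) gave p = 0.10, the smallest that 3 against 3 libraries allow, and 0.12 when adjusted over the 6 pairs of transporters compared.

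Slco1a1 and Slco1a4 encode OATP1A1 and OATP1A4, close relatives that take up bile acids, steroid conjugates and other organic anions. Slco1a1 is known to be higher in the liver of male than of female mice. Slco1a1 was at 504, 608 and 785 CPM in EV and at 18.7, 19.1 and 13.4 CPM in Sox4, a fall of 37.0-fold (log2 fold change -5.21, SE 0.25, adjusted p = 3.69e-07). This was the largest fall among the 10 transporters. Slco1a4 was at 47.0, 96.4 and 74.9 CPM in EV and at 353, 441 and 449 CPM in Sox4. It was 5.70-fold higher (log2 fold change 2.51, SE 0.32, adjusted p = 4.33e-05). The spread within EV was wide for this gene, with EV 1 the lowest, yet the lowest Sox4 library was well above the highest EV library.

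The relation between these neighbours was inverted. Slco1a4 had 0.0933 to 0.159 counts per count of Slco1a1 in EV and 18.9 to 33.5 in Sox4, a shift of 7.76 on the log2 scale (SE 0.35, exact permutation p = 0.10, adjusted 0.12). The genes lie side by side on mouse chromosome 6 in the RefSeq annotation of GRCm38.p6, with Gm5724 between them and Slco1b2. The other members of the cluster were nearly silent. Slco1a5 and Slco1a6 had no count in any library, which allows up to 0.231 CPM in each, and Slco1c1 had 2 counts in EV 1 and none in the other libraries. Transcripts of Slco1a1 and Slco1a4 are similar, but only 1.64% and 1.61% of their sequence, read in stretches of 50 bases, also occurs in another gene of GENCODE M21, so few reads could be exchanged between them.

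The 250 bases before the RefSeq start sites of the Slco1 cluster carriers are printed since these neighbours moved in opposite directions. Sequences are from RefSeq on GRCm38.p6, 5′ to 3′ on the strand of the gene, in lower case, with capitals for matches to motifs that were searched on both strands.
Slco1a1 (chr6:141946963-141947212, minus strand): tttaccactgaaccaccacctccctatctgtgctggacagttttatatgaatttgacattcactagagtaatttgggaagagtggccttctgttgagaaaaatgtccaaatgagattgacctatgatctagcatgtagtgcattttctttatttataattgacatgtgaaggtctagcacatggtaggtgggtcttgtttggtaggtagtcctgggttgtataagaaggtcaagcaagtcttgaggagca
Slco1a4 (chr6:141856221-141856470, minus strand): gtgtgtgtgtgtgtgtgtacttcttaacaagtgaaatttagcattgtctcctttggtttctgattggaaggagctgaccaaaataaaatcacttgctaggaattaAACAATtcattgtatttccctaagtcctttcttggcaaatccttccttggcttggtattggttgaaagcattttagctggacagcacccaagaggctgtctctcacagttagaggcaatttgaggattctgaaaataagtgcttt
Slco1b2 (chr6:141629268-141629517, plus strand): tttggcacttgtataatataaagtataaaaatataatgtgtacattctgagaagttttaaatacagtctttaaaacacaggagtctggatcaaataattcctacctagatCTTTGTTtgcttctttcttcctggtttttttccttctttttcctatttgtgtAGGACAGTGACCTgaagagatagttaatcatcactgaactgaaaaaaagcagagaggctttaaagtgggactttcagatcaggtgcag

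The motifs were the FXR inverted repeat (AGGNCA and TGACCT with any 1 base between), the HNF4 motif CAAAGTCCA, the antioxidant response element TGACNNNGC known from NRF2 targets, and the SOX motifs AACAAAG and AACAAT, none of which overlapped another in the windows printed. The AHR core GCGTG was also searched but is not shown in capitals. Windows of 300 bases, from 250 before to 50 after the start, were found for 9 of the 10 transporters. Slco1a4 matched the SOX motif AACAAT, which occurs in 10.7% of all 32851 windows, and Slco1a1 matched none of the 6. Slco1b2 matched the FXR inverted repeat and, on the opposite strand, the SOX motif AACAAAG, which occur in 0.0365% and 5.85% of all windows. Neither of the 2 start sites of Slc10a1 matched any of the 6, and the HNF4 motif, present in 0.475% of windows, was in no transporter window. A match describes the letters and not a bound site. Since the motifs were chosen after promoter sequences had been seen, the shares of windows do not measure how unusual a match is.

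Abcb11 encodes the bile salt export pump, BSEP, which drives bile acids into the canaliculus. Its level was 748, 756 and 676 CPM in EV and 635, 508 and 675 CPM in Sox4. The groups nearly touched, with the lowest EV library beside the highest Sox4 library. The log2 fold change was -0.26 (SE 0.13, adjusted p = 0.160) with a 95% interval of -0.64 to 0.10, and it was 0.21 with library size alone (adjusted p = 0.242). A fall to the extent seen in Slc10a1 lies outside this interval.

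Abcb4 encodes MDR2, the flippase that moves phosphatidylcholine into bile. It was at 357, 446 and 483 CPM in EV and at 328, 376 and 509 CPM in Sox4, and the groups overlapped. The log2 fold change was -0.08 (SE 0.23, adjusted p = 0.728) with an interval of -0.73 to 0.54. It was 0.39 with library size alone (adjusted p = 0.0932) and 0.04 without Sox4 replicate 1. Abcb4 had 0.477 to 0.714 counts per count of Abcb11 in EV and 0.516 to 0.755 in Sox4, ranges that overlapped (difference 0.17 on the log2 scale, SE 0.25, exact permutation p = 0.50).

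Abcc2 encodes MRP2, the canalicular pump for bilirubin glucuronides and glutathione conjugates. It was at 999, 918 and 1007 CPM in EV and at 2000, 1987 and 1595 CPM in Sox4, so that every Sox4 library lay above every EV library. The rise was 1.91-fold (log2 fold change 0.93, SE 0.12, adjusted p = 0.000576).

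Abcg2 encodes BCRP, an exporter of sulphated steroids, urate and drugs. It was at 122, 101 and 122 CPM in EV and at 37.7, 42.4 and 43.5 CPM in Sox4, with little spread in either group. It fell 2.79-fold (log2 fold change -1.48, SE 0.11, adjusted p = 9.35e-06). Within a library the relation of Abcg2 to Abcc2 shifted by -2.40 on the log2 scale (SE 0.16, exact permutation p = 0.10, adjusted 0.12), since the fall of Abcg2 went with the rise of Abcc2.

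The windows before Abcb11, a canalicular pump that did not pass the test, and Abcc2, a canalicular pump that rose, are printed for comparison with that of Slco1b2 above, with capitals as before.
Abcb11 (chr2:69342617-69342866, minus strand): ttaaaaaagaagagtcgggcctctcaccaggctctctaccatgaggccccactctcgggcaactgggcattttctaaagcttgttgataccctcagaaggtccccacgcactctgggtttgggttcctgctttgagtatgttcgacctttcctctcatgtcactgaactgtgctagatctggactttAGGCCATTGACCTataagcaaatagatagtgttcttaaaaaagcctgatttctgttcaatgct
Abcc2 (chr19:43782058-43782307, plus strand): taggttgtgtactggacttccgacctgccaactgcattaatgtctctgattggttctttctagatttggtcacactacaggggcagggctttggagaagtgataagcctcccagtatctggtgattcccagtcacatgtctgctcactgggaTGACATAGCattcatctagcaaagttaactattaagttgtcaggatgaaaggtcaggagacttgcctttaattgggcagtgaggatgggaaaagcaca

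Abcb11 held the FXR inverted repeat at position -63 relative to the start and Slco1b2 held it at position -88. Slco1b2 fell 4.21-fold and Abcb11 did not pass the test, and the part of the motif in these values was not tested. Both windows are among the 12 of 32851 with these letters. The motif was chosen after promoter sequences had been seen, so that number does not measure how unusual the matches are. The antioxidant response element was at position -98 in Abcc2. It occurs in 12.4% of all windows, and the AHR core, present in 32.4% of all windows, was in those of Abcb11, Abcb4, Abcg2 and Abcc4.

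Abcc3 and Abcc4 encode MRP3 and MRP4, which send bile acids and glucuronides back across the basolateral membrane. Abcc3 was at 539, 620 and 582 CPM in EV and at 256, 268 and 184 CPM in Sox4. It fell 2.46-fold (log2 fold change -1.30, SE 0.18, adjusted p = 1.31e-04). Relative to Abcc2 in the same library it fell from 0.540 to 0.675 counts per count of Abcc2 in EV to between 0.116 and 0.135 in Sox4 (log2 difference -2.24, SE 0.12, exact permutation p = 0.10, adjusted 0.12).

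Abcc4 had 8, 23 and 5 counts in the EV libraries and 715, 631 and 632 in the Sox4 libraries, or 0.616, 1.75 and 0.363 CPM against 35.8, 32.2 and 32.0 CPM. The Sox4 libraries were close to each other, whereas the EV level rested on few counts. The fitted rise was 36.6-fold (log2 fold change 5.19, SE 0.58, adjusted p = 6.74e-06), the largest among the 10. It was 6.06 on the log2 scale without EV replicate 2, the EV library with most counts, and 4.79 without EV replicate 3. Counted per count of Abcb11, Abcc4 rose by 5.70 on the log2 scale (SE 0.61, exact permutation p = 0.10, adjusted 0.12).

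RefSeq lists 2 start sites for Abcc4, and the window before the second is printed as it held a SOX motif and an antioxidant response element, both in capitals.
Abcc4, second start (chr14:118676932-118677181, minus strand): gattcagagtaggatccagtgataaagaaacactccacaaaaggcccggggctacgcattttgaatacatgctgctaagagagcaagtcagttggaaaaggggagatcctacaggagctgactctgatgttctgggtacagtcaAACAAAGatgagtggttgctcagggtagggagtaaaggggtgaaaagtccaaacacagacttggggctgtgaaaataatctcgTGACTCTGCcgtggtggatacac

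The SOX motif AACAAAG was at position -106 and the antioxidant response element at position -23 of that start, and the first start held a match to the latter at position -25 on the opposite strand. These motifs occur in 5.85% and 12.4% of all windows, and 13 windows of the transporters were searched for 6 motifs. Since the motifs were chosen after promoter sequences had been seen, these shares do not measure how unusual the matches are. Counts per gene do not say which start was used.

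**Figure D2:**
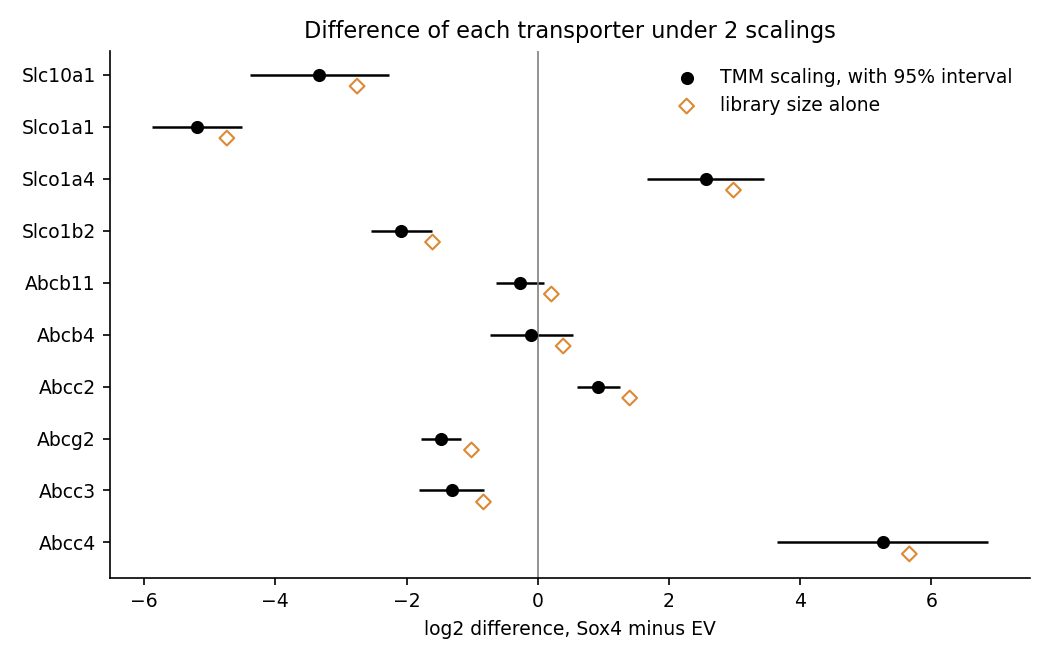
Difference of each transporter between Sox4 and EV on the log2 scale, with the 95% interval from the spread of the 6 libraries (points and lines, TMM scaling) and the edgeR value with library size alone (open diamonds). The sign is the same under both scalings for 8 genes, and Abcb11 and Abcb4 lie on either side of 0.

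**Figure D3:**
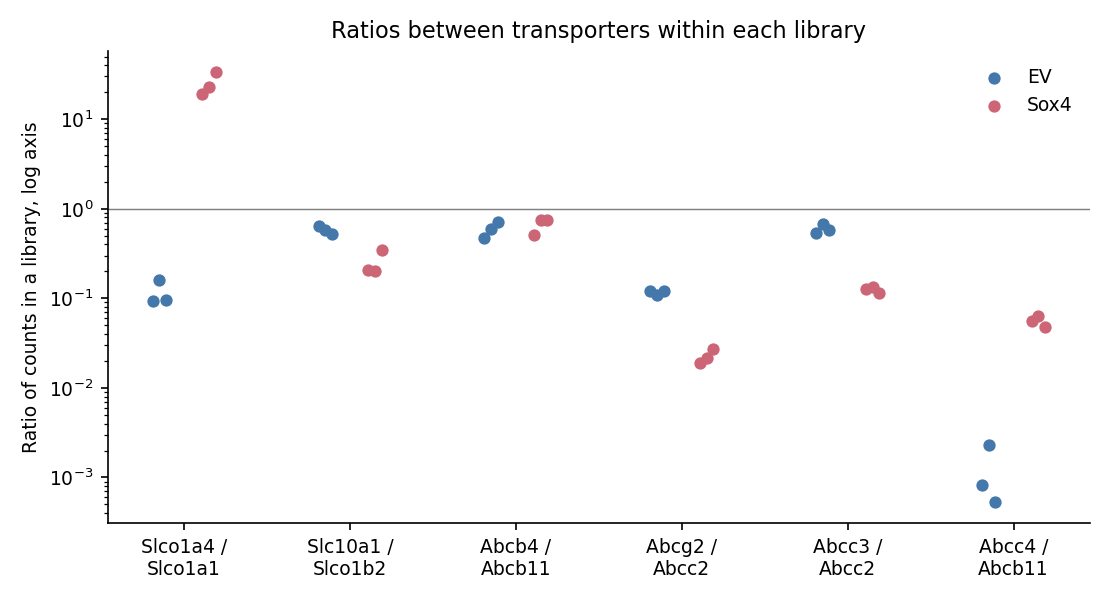
Ratio of counts between 2 transporters within the same library (log axis) for 6 pairs, with 1 point per library. The ratio of Abcb4 to Abcb11 overlaps between groups, and the other 5 pairs do not overlap.

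To compare levels between genes, CPM were divided by the merged exon length of each gene in GENCODE M21 (CPM per kb). In EV, Slc10a1 ranked first at 326 ± 14.9 CPM per kb (SD, n = 3), followed by Slco1b2 at 252 ± 29.0 and Abcb11 at 141 ± 8.53. Abcb11 and Slco1a1 overlapped in range, as did Slco1a1 and Abcc2, Abcc2 and Abcc3, and Abcg2 and Slco1a4. In Sox4, Abcc2 ranked first at 218 ± 27.0 CPM per kb, Abcb11 came second at 118 ± 16.9 and Slco1a4 next at 64.6 ± 8.30. Slc10a1 moved to rank 7 at 34.9 ± 17.4 CPM per kb and Slco1a1 to the last rank at 3.24 ± 0.60. Neighbouring ranks from Slco1a4 through Slco1b2, Abcb4 and Abcc3 to Slc10a1 overlapped in range.

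The make-up of the transporter mRNA pool followed from these levels. The 4 uptake carriers made up 62.9 ± 1.88% (SD, n = 3) of the length-scaled sum in EV and 27.3 ± 4.53% in Sox4, while the 4 canalicular exporters made up 28.1 ± 1.83% and 64.8 ± 3.11%. Their summed level was 709 ± 64.8 CPM per kb in EV and 163 ± 31.9 in Sox4 for uptake, against 315 ± 0.744 and 384 ± 11.6 for canalicular export. Abcc2 alone went from 10.2 ± 0.976% to 36.9 ± 5.56% of the pool and Slc10a1 from 29.0 ± 1.34% to 5.82 ± 2.7%. Abcc4, despite its rise, made up 0.881 ± 0.070% of the pool in Sox4, and the 2 basolateral exporters together had 9.06 ± 0.335% in EV and 7.90 ± 1.58% in Sox4. These shares depend on the gene length used, which for Abcb4 was 9383 bases for merged exons and 4079 for the longest transcript. With the latter, Slco1a1 (10.9%) ranked above Abcb11 (9.87%) in EV.

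**Figure D4:**
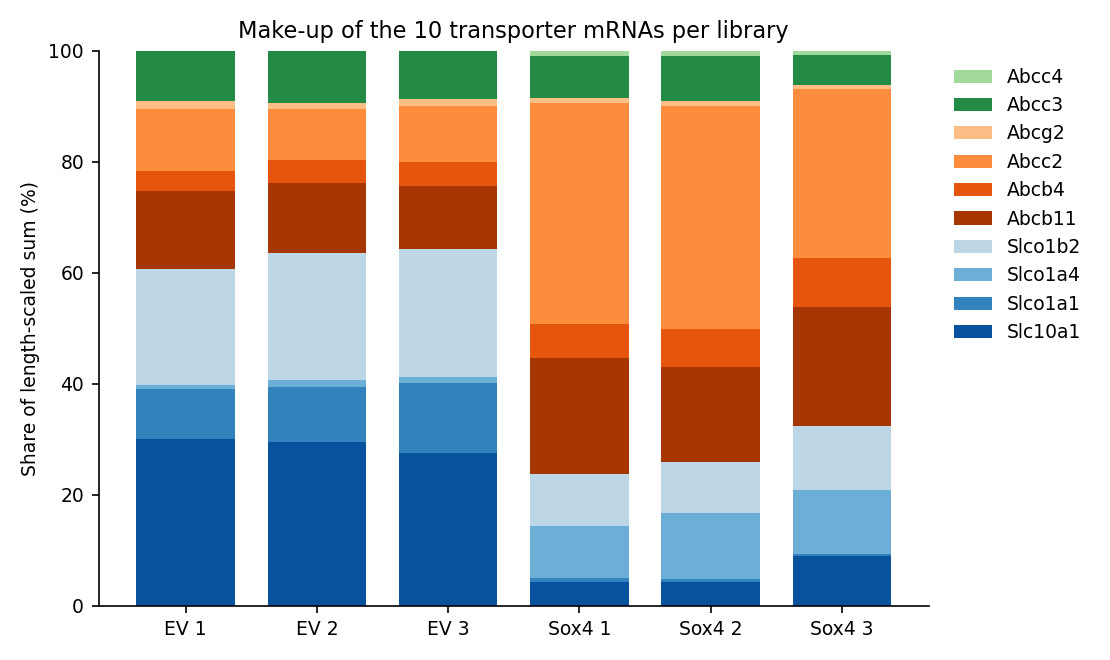
Share of each transporter in the length-scaled sum of the 10 mRNAs, in percent, for each library, with uptake carriers in blue, canalicular exporters in orange and basolateral exporters in green. Uptake carriers hold 60.8 to 64.3% in the EV libraries and 23.7 to 32.4% in the Sox4 libraries.

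Families named by symbol were then counted in full, to be read against the 26.0% of all genes that were lower and 29.0% higher, or 12.8% and 51.0% with library size alone. Of 15 Slco genes 5 could be tested, and Slco1a4 was the 1 that rose, while Slco1a1, Slco1b2, Slco2a1 and Slco2b1 fell. All 8 tested Abcc genes passed the test, with 5 higher (Abcc2, Abcc4, Abcc5, Abcc9 and Abcc12) and 3 lower (Abcc3, Abcc6 and Abcc10). Of these, Abcc4, Abcc5, Abcc9 and Abcc12 did not reach the minimum count of 10 in every EV library and passed the filter through the Sox4 libraries. Their direction was thus partly set by the filter, and the 5 higher are not a free count against the 29.0%. Abcc9 rested on few counts, 4, 3 and 12 in EV and 22, 39 and 73 in Sox4, with an interval of 0.18 to 3.85 on the log2 scale. With library size alone 5 Abcc genes were higher and 2 lower. Among 9 tested Abcb genes 3 were lower and 1, Abcb1a, was higher, and with library size alone 1 was lower and 1 higher. Of 5 tested Slc10a genes 3 were lower (Slc10a1, Slc10a2 and Slc10a5) and 0 higher, whereas with library size alone 2 were lower and 2 higher. Of 4 tested Abcg genes Abcg2 was lower and Abcg1 higher, and with library size alone 1 was lower and 3 were higher.

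Of 24 other tested transporters of bile and organic solutes, 13 were lower and 5 higher, with a median log2 fold change of -0.73 against 0.04 for all genes, and with library size alone 11 were lower and 9 higher. The shares of all genes were 26.0% lower and 29.0% higher, or 12.8% and 51.0% with library size alone, and apply to each of the lists that follow. These lists were chosen with earlier results of these data known, so the shares do not measure an excess. Slco2b1, a further organic anion carrier, fell from 193 ± 31.2 to 10.4 ± 1.51 CPM (SD, n = 3), or -4.21 on the log2 scale with an SE of 0.18 (adjusted p = 2.16e-07). Slc27a5, the bile acid CoA ligase, fell by 3.55 on the log2 scale, and Slc47a1, the MATE1 exporter of organic cations, fell by 3.32. Abcc5, an exporter of cyclic nucleotides, rose from 1.07 ± 0.546 to 37.2 ± 3.47 CPM, or 5.11 on the log2 scale with an SE of 0.46 (adjusted p = 1.16e-06), close to the size of the rise of Abcc4. Like Abcc4, it passed the filter on low counts through the Sox4 libraries. Abcb1a, a P-glycoprotein of the canaliculus, was at 2.29 and Atp7b, the copper exporter, at 1.88 on the log2 scale, both past the test. The sterol exporters Abcg5 (-0.14) and Abcg8 (0.16), named after their values were seen, did not pass, although with library size alone both were higher (0.33 and 0.63). The basolateral bile acid exporter subunits Slc51a and Slc51b, also named after their values were seen, had at most 7 and 16 counts in a library and were below the filter.

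Of 14 tested regulators of transporter genes, 7 were lower and 2 higher, and with library size alone 4 were lower and 5 higher. The 9 that passed in either direction compare with 55.1% of all genes. Nfe2l2, which encodes NRF2, rose from 114 ± 5.69 to 262 ± 13.1 CPM (SD, n = 3), or 1.21 on the log2 scale with an SE of 0.06 (adjusted p = 2.13e-05), and Ahr, the aryl hydrocarbon receptor, was 0.93 higher on the log2 scale. Nr1i3, which encodes CAR, fell from 29.3 ± 4.48 to 7.07 ± 0.592 CPM, or -2.05 on the log2 scale with an SE of 0.15 (adjusted p = 7.64e-06). Cebpb (-1.40), the retinoid partner receptor gene Rxra (-1.19) and the oxysterol receptor gene Nr1h3 (-0.91) were also lower. Hnf4a (-0.60) was lower, and Nr1i2, which encodes PXR, did not pass (0.11, adjusted p = 0.512), both named after their values were seen. The call of Hnf4a is relative to the TMM scale, where the median of all genes was 0.04, against 0.51 with library size alone. Nr1h4, which encodes FXR and was named after its values were seen, fell from 139 ± 17.5 to 98.2 ± 9.88 CPM, or -0.50 on the log2 scale with an SE of 0.13 (adjusted p = 0.0088), and was at -0.03 with library size alone. Its target Nr0b2, named likewise, was at 52.6, 59.2 and 47.3 CPM in EV and at 78.4, 33.8 and 35.4 CPM in Sox4. Sox4 1 was thus the highest of all and the others the lowest, and Nr0b2 did not pass (log2 fold change -0.11, adjusted p = 0.805) except without Sox4 replicate 1 (-0.62).

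Among 19 tested genes of the canalicular membrane and its trafficking, 8 were lower and 6 higher, against 4 lower and 9 higher with library size alone. The share higher was close to the 29.0% of all genes. Ezr, the membrane linker ezrin, rose by 2.12 on the log2 scale, from a mean of 2.81 to 12.2 CPM. Rdx, which encodes radixin, fell from a mean of 259 to 169 CPM (log2 fold change -0.62, adjusted p = 0.0018). Vipas39, a partner of VPS33B in apical sorting, and Mal2, a transcytosis protein, were 1.13 and 1.10 higher on the log2 scale. Vps33b did not pass (0.05), and both Rdx and Vps33b were named after their values were seen. Dpp4, an apical peptidase, fell from 183 ± 29.3 to 49.5 ± 3.67 CPM (SD, n = 3), or -1.88 on the log2 scale with an SE of 0.15 (adjusted p = 6.15e-06), and the scaffold gene Pdzk1 (-1.15) and the polarity kinase gene Stk11 (-1.11) were lower.

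Of 15 tested genes of bile acid synthesis and conjugation 12 were lower, against 26.0% of all genes, and 0 higher (edgeR, with 0 higher also with library size alone, where 9 were lower, against 12.8% of all genes), and the median log2 fold change was -1.12. Baat, which conjugates bile acids with taurine or glycine before their export, fell from 351 ± 28.8 to 58.2 ± 13.6 CPM (SD, n = 3), or -2.59 on the log2 scale with an SE of 0.21 (adjusted p = 4.03e-06). Cyp8b1 (-4.12), Cyp7b1 (-3.24), the muricholic acid enzyme Cyp2c70 (-2.56), Cyp27a1 (-2.43) and the sterol carrier gene Scp2 (-1.70) also fell. Cyp7a1, the rate-limiting enzyme of bile acid synthesis, named after its values were seen, varied widely within each group, from 27.0 to 110 CPM among EV libraries and from 33.2 to 118 CPM among Sox4 libraries, and did not pass (0.15, SE 0.79, adjusted p = 0.869).

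**Figure D5:**
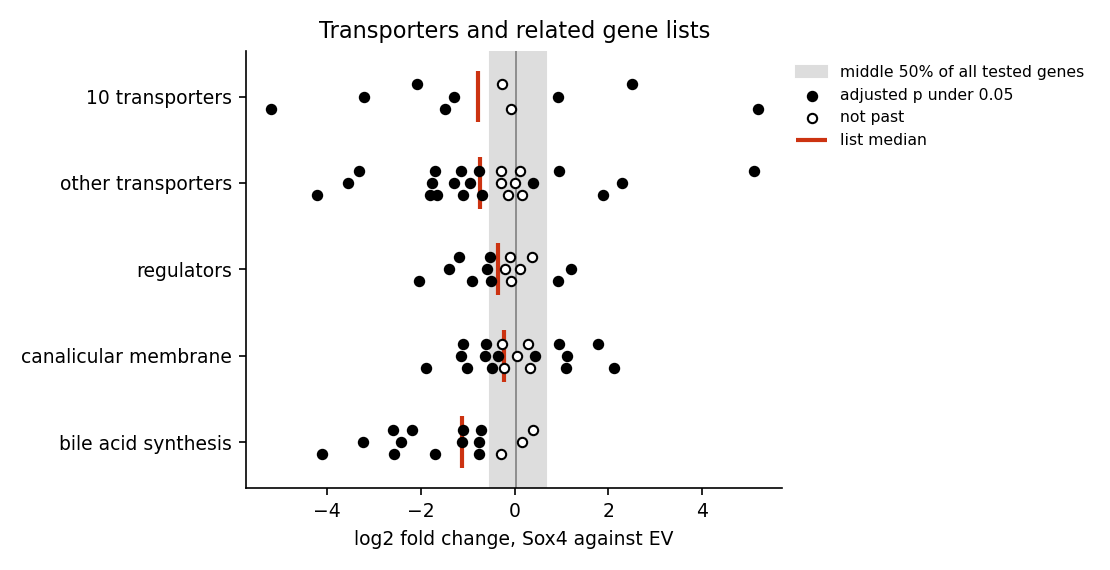
Log2 fold change of Sox4 against EV (TMM scaling) for the tested genes of the 10 transporters and 4 related lists, with filled points past an adjusted p of 0.05, open points not past, and a red line at the list median. The grey band holds the middle 50% of all tested genes, and 5 of the 10 transporters lie beyond a log2 value of 2 in either direction.

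Some of these transporters are also made by bile duct and endothelial cells, so markers of other cells were examined. The study reports EPCAM and other biliary genes in hepatocyte-derived cells after Sox4 delivery. A rise of cholangiocyte markers therefore cannot be assigned to bile duct cells or to hepatocytes here. Of 5 tested cholangiocyte markers 2 were higher (Epcam and Spp1) and 1 lower (Slc10a2), a call that was lost with library size alone, with the replicate block and when EV 2, EV 3, Sox4 1 or Sox4 3 was left out. Its groups overlapped and its interval on the log2 scale was -1.75 to 0.29. The summed level of 12 cholangiocyte genes was 44.7 to 55.6 CPM for EV and 79.2 to 95.8 CPM for Sox4. The defining genes Krt7 and Krt19 had no count in EV and at most 9 counts in a Sox4 library. From the same list, Spp1 had 63, 53 and 94 counts in EV and 793, 811 and 695 in Sox4. Epcam had 1, 0 and 5 counts in EV and 55, 39 and 60 in Sox4, and thus passed the filter through the Sox4 libraries. Endothelial markers summed to 17.9 to 27.7 CPM for EV and 15.6 to 36.6 CPM for Sox4, with 2 of 8 higher and 1 lower. Kupffer cell markers summed to 9.86 to 23.7 and 23.7 to 59.6 CPM, with 3 of 7 higher, against 29.0% of all genes, or 51.0% with library size alone. Of these 3, Cd68 (7, 12 and 6 counts in EV) and Marco (4, 15 and 14) passed the filter through the Sox4 libraries. Their calls could hardly fall on the lower side. Stellate cell markers summed to 8.32 to 43.8 and 74.2 to 135 CPM, with 1 of 2 tested higher. That gene, Reln, alone gave 126, 117 and 50.8 CPM in Sox4, and it did not pass when Sox4 2 was left out. Lymphoid and neutrophil markers reached at most 4.29 CPM, and of the erythroid list Alas2 was lower while no globin gene passed 22 counts. Levels of marker genes do not give the part of these cells in the transporter values, which was not tested.

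The genes whose profile over the 6 libraries lay nearest to 4 of the transporters were named by the root mean square difference of log2 CPM, each gene set to its EV mean, among the 9025 genes whose mean count reached 100. Nearest to Slc10a1 were 4732465J04Rik (0.177), Slc47a1 (0.231) and Gstt3 (0.296), and nearest to Slco1a1 were Scnn1a (0.457), Thrsp (0.527) and Mup22 (0.568). Nearest to Abcc4 were Cbr3 (0.196), Pmepa1 (0.323) and Il17rd (0.343), and nearest to Abcb11 were Amdhd1 (0.0487), Rufy1 (0.0551) and Dpy30 (0.0575).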

How the data were processed

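Per the labels, STAR 2.7.10b and featureCounts 2.0.1 were used with the mouse genome GRCm39, and the authors deposited raw counts per gene symbol. The annotation release, strand setting and handling of reads with several matches are not given in the sources used here. The deposited table of median-of-ratios values holds the same measurements in scaled form and was not used. The labels do not state that libraries came from separate mice, which the methods do, so p-values measure the spread between these samples. Replicate pairs differed by more than counting noise (chi-square per degree of freedom 19.3 to 69.8).

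The analysis used R 4.3.3 and edgeR 4.0.16 (filterByExpr with a minimum count of 10 and a total of 15, TMM, robust quasi-likelihood F test, no covariate), with limma 3.58.1 and DESeq2 1.42.0 as alternatives. P-values were adjusted over all genes by the Benjamini-Hochberg method with a threshold of 0.05. SE and intervals come from log2 CPM with a prior count of 2 (95%, 4 degrees of freedom). Ratios between transporters used a pseudocount of 0.5 and scipy 1.17.1. Gene lengths, overlaps and shared sequence came from GENCODE M21 (GRCm38), a different build from the counts, and were matched by symbol, as were the promoter windows. Floors of 3 counts cover counting error only. Genes overlapping on the opposite strand (Abcb11, Abcc4) are uncertain, since strand use is not stated.

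The 10 genes and the lists were chosen with earlier results of these data known, and the motifs after promoter sequences had been seen. Named genes were the 10 transporters, Sox4, up to 6 genes per related list with the largest change past the threshold and a mean count of at least 100, and the 3 nearest profiles of 4 transporters, and any other gene is marked in the text, apart from the families and cell markers.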

Additional observations from a re-analysis of the deposited data

How the results depend on the processing

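The count of changed genes lay between 5937 and 8092 over 13 alternatives, against 6990 (with library size alone 79.9% of them higher, against 52.7%), and between 6027 and 7269 when a library was left out. The transporters past the threshold stayed at 5 lower and 3 higher in each. Of 130 transporter values under an alternative, 127 had the same direction and call. With library size alone Abcb11 was at 0.21 and Abcb4 at 0.39, by the shift of all genes on that scale, and leaving out a library moved Abcb4 between -0.28 and 0.044. Without a library Abcb11 lay between -0.34 and -0.15. Of 416 values of other named genes 399 were likewise the same, 8 no longer passed, 2 newly passed and 7 reversed, namely Abcg5 (0.33) and Nr0b2 (0.36) with library size alone, and, when a library was left out, Cyp7a1 (-0.47 to 0.84) and Nr0b2 (-0.62 to 0.11). The cause of the latter was not tested. In the 4 related lists together 23 genes were higher with library size alone. In the lists of other cells 14 genes were higher and 1 lower with library size alone and 17 higher with no filter, and leaving out a library gave 5 to 17 higher and 1 to 3 lower.

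All 48 ratio values moved by less than 1 SD. With the longest transcript as gene length, shares in EV were 25.4% for Slco1b2, 9.87% for Abcb11, 7.10% for Abcb4, 8.28% for Abcc2 and 7.88% for Abcc3. In Sox4 they were 14.3% for Slco1a4, 11.7% for Slco1b2, 15.9% for Abcb11, 13.0% for Abcb4, 30.8% for Abcc2, 0.952% for Abcg2 and 0.773% for Abcc4.

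With the replicate block 7362 genes changed and Slc10a1 was at -3.33, Abcb11 at -0.27 and Abcc4 at 5.23, with no transporter call changed. Deviations of same-numbered libraries correlated at 0.27, -0.09 and 0.13, which does not pair them. Depth limits Abcc4 in EV, where 1 count was 0.0726 to 0.0771 CPM, and its rise therefore has a wide interval, 3.65 to 6.86 on the log2 scale.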
